A study of Mus musculus with 6 samples.

Results

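Fabp6 encodes the ileal bile acid-binding protein, also called gastrotropin, and Abcc2 encodes the apical organic anion exporter MRP2. Both were picked by gene name from the deposited comparison of ileum RNA, and they are 2 of the 923 genes that the table lists. The data are 6 ileum RNA-seq libraries, 3 from Hif1α LSL/LSL;VilERcre mice and 3 from Hif1α LSL/LSL littermates, with 2 males and 1 female in each group by the sample labels, whereas the study's text speaks of male mice. All 6 mice carried the LSL-HIF1 dPA allele, a floxed stop cassette before a HIF-1α with replaced prolines that escapes hydroxylation-dependent degradation, on a C57BL/6 background, and both groups received tamoxifen. A tamoxifen-activated Cre under the villin promoter removes the stop cassette in intestinal epithelium of the former mice, called overexpression mice here, and the latter, called flox controls, lack Cre. The age and diet of the sequenced mice are not given in the sources used here. RNA came from ileum and not from a sorted epithelial fraction.

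Bile acids made in the liver are taken up at the brush border of ileal enterocytes by the sodium-dependent transporter Slc10a2, carried through the cytosol by Fabp6 and released to the portal blood by the heteromer of Slc51a and Slc51b. The receptor FXR, encoded by Nr1h4, senses bile acids in these cells, switches on Fabp6 and Fgf15 and so signals back to hepatic synthesis. MRP2 sits in the same brush border and works outward. It pumps glucuronide, sulfate and glutathione conjugates, including conjugated bile acids and bilirubin, back into the lumen.

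In overexpression ileum the mean of Fabp6 was 1.33-fold that of flox controls with overlapping libraries, and the mean of Abcc2 was 0.712-fold, with every overexpression library below every flox library. Neither gene passed edgeR's quasi-likelihood test after Benjamini-Hochberg adjustment (adjusted p = 1 for both). Only listed genes were tested, and the number adjusted for was the 19204 of the authors' test. Relative to Abcc2 within the same library, Fabp6 took 23.8 ± 7.39 (SD, n = 3) fragments per Abcc2 fragment in overexpression mice and 13.1 ± 3.78 (SD, n = 3) in flox controls, and these ratios did not overlap. Of the 923 listed genes, 33.5% were apart in the direction of Abcc2 and 38.6% in the other. Genes were listed by their p in these same libraries, and both members were chosen with their opposite directions known, which favors both separations.

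The stretches around the start sites of both genes are shown because short sequences known as contacts of the bile acid receptor and of HIF were searched for in them. Each is 300 bases of GRCm38.p6 from RefSeq, 250 before and 50 after the annotated start, written 5′ to 3′ on the strand of the gene. Capitals mark matches, on either strand, to ACGTG (a form of the core of the hypoxia response element), AGGTCA (the core bound by one nuclear receptor monomer), AGGTNANTNACCT (an inverted repeat of such cores 1 base apart, the form FXR binds) and TATAA. The other form of the hypoxia core, GCGTG, was not searched for. The inverted repeat was spelled out after the Fabp6 sequence had been read. The Fabp6 window is chr11:43601513-43601812 on the minus strand, and the Abcc2 window is chr19:43782058-43782357 on the plus strand.
Fabp6: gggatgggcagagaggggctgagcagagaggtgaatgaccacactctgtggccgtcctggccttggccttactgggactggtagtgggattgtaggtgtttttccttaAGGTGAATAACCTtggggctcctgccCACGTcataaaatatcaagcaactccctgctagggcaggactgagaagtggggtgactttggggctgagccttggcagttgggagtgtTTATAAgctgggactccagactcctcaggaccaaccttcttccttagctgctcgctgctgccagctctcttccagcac
Abcc2: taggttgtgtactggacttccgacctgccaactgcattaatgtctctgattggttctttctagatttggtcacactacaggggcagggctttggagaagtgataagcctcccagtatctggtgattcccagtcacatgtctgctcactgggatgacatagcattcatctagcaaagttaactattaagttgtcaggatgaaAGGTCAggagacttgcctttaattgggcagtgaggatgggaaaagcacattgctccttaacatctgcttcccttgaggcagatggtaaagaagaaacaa

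In Fabp6 the inverted repeat AGGTGAATAACCT starts 142 bases upstream of the start site, a match to ACGTG on the opposite strand lies 116 bases upstream, and TATAA lies 27 bases upstream. Among 32851 mouse promoter windows of the same length, 7 (0.0213%) held the inverted repeat, 19.6% held ACGTG and 24.9% held TATAA on either strand. Abcc2 had none of these 3 in its window and held 1 AGGTCA, 49 bases upstream, which 16.3% of the windows held. These are matches of letters and not measured binding. Because the inverted repeat was spelled out with Fabp6 in view, its match there was fixed beforehand. Its share among the windows is thus no measure of how unusual that match is.

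Fabp6 was among the most abundant transcripts of the table. Its gene (ENSMUSG00000020405) lies on chromosome 11 from 43596049 to 43601540 of GRCm38, minus strand, and its single annotated transcript has 479 bases. It ranked 5 of 923 by mean normalized count, the fragment count divided by a size factor for each library, and 2 of 923 by mean FPKM, the fragment count divided by gene length and library total. Normalized counts were 44735, 37897 and 33689 in flox replicates 1, 2 and 3. They were 66849.5, 51098 and 36234 in overexpression replicates 1, 2 and 3. Both overexpression males lay above all flox libraries, while the overexpression female lay below the highest flox library, so the groups overlapped.

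The group means of Fabp6 were 38774 ± 5575 (SD, n = 3) in flox controls and 51394 ± 15310.1 (SD, n = 3) in overexpression mice. The log2 fold change was 0.41 (standard error 0.23, unadjusted p = 0.110, adjusted p = 1 from edgeR). Over libraries, an exact permutation test gave p = 0.3 (two-sided), where 3 against 3 allows no p below 0.1. The coefficient of variation between mice was 14.4% in flox controls and 29.8% in overexpression mice, against a counting error of 0.374% to 0.567% per library. In FPKM, the same gene stood at 3677 ± 497 (SD, n = 3) and 4844 ± 1429 (SD, n = 3). As a share of the library total implied by the deposited FPKM, Fabp6 ran from 0.154% to 0.201% in flox libraries and from 0.164% to 0.301% in overexpression libraries.

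The size of the Fabp6 difference rested on overexpression replicate 1, a male. Without it the log2 fold change was 0.17 (standard error 0.22), and leaving out each library in turn gave values from 0.17 to 0.605 in 6 fits, above 0 in each. The females were the lowest library of each group. Among males, the mean was 58974 in overexpression mice and 41316 in flox controls, 1.43-fold, with 2 libraries each. The females differed by 1.08-fold, 36234 against 33689, with 1 library each. With sex in the model, Fabp6 was 0.49 (standard error 0.18) higher in males than in females on the log2 scale (unadjusted p = 0.0290, adjusted p = 1 from edgeR). The genotype difference in males exceeded that in females by 0.41 (standard error 0.40, unadjusted p = 0.344, adjusted p = 1 from edgeR), so no difference between the sexes was detected.

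**Figure D1:**
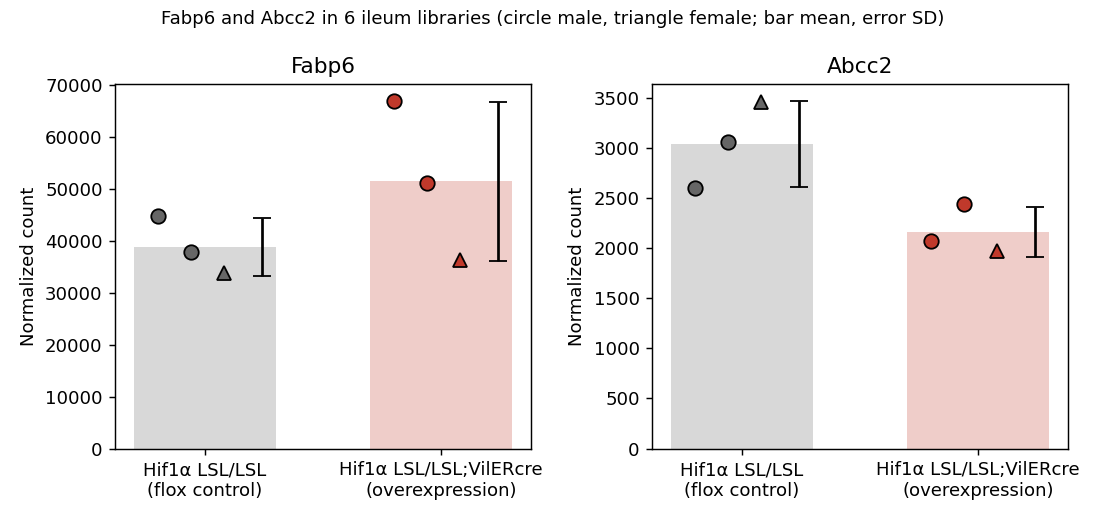
Normalized counts of Fabp6 (left) and Abcc2 (right) in each library of flox controls (grey) and overexpression mice (red), with circles for males, triangles for females, bars at the group mean and error bars of 1 SD (n = 3). Fabp6 ran from 33689 to 44735 in flox controls and from 36234 to 66849.5 in overexpression mice with overlap, whereas all 3 overexpression values of Abcc2, up to 2444, lay below the lowest flox value of 2600.3.

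Abcc2 showed the opposite order. Its gene (ENSMUSG00000025194) lies on chromosome 19 from 43782192 to 43840740 of GRCm38, plus strand, with 5 annotated transcripts whose exons cover 8532 bases. Normalized counts were 2600.3, 3062 and 3453 in flox replicates 1, 2 and 3. They were 2072, 2444 and 1971 in overexpression replicates 1, 2 and 3. Every overexpression library lay below every flox library, and 33.5% of the listed genes were apart in this direction and 38.6% in the other. Genes entered the table by their p in these same libraries, which favors separation, so being apart is not a result about Abcc2 alone.

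The group means of Abcc2 were 3038 ± 427 (SD, n = 3) in flox controls and 2162 ± 249 (SD, n = 3) in overexpression mice, 28.8% below the flox mean. The log2 fold change was -0.49 (standard error 0.15, unadjusted p = 0.00848, adjusted p = 1 from edgeR). The exact permutation test gave p = 0.1 (two-sided), the smallest that 3 against 3 allows. With the groups apart, that value was fixed. Abcc2 was listed by its p in these same libraries, which favors a low p in either test. DESeq2 on the same genes gave an adjusted p of 0.432 for Abcc2 and of 1 for Fabp6. Leaving out 1 library at a time moved the Abcc2 log2 fold change between -0.59 and -0.39, and no such fit brought it under the threshold of 0.05. Coefficients of variation were 14.1% and 11.5% in flox and overexpression mice, and counting error was 1.65% to 2.43% per library.

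By sex, Abcc2 averaged 2258 in overexpression males and 2831 in flox males, 0.798-fold, with ranges of 2072 to 2444 and 2600.3 to 3062. The females stood at 1971 and 3453, 0.571-fold. The female flox mouse was thus the highest and the female overexpression mouse the lowest of the 6 libraries. The genotype effect differed between sexes by 0.48 on the log2 scale (standard error 0.28, unadjusted p = 0.130, adjusted p = 1 from edgeR), with 1 female in each group. In males only, 2 against 2, the Abcc2 log2 fold change was -0.33 (standard error 0.16, unadjusted p = 0.0926, adjusted p = 1 from edgeR).

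Per length, the abundance of the 2 genes lay far apart. Abcc2 stood at 16.2 ± 2.40 FPKM (SD, n = 3) in flox controls and 11.4 ± 1.30 FPKM (SD, n = 3) in overexpression mice, rank 194 of 923. The FPKM of Fabp6 was 234 ± 67.3 (SD, n = 3) times that of Abcc2 within flox libraries and 425 ± 132 (SD, n = 3) times within overexpression libraries. The FPKM of Abcc2 divides by the 8532 bases covered by any of its exons, more than the 8027 bases of its longest annotated transcript, and so leans low if shorter transcripts prevail. No 150-base window of either gene's transcripts occurred in a transcript of another gene (0 of 330 for Fabp6 and 0 of 8379 for Abcc2), and no other annotated gene shared exonic bases with them.

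A ratio within a library does not depend on how libraries are scaled. Fabp6 fragments per Abcc2 fragment were 17.2, 12.4 and 9.76 in flox replicates 1, 2 and 3. They were 32.3, 20.9 and 18.4 in overexpression replicates 1, 2 and 3. The lowest overexpression ratio, in the female, lay above the highest flox ratio, in a male. On the log2 scale, the mean ratio of Abcc2 to Fabp6 was -3.67 ± 0.41 (SD, n = 3) in flox controls and -4.53 ± 0.42 (SD, n = 3) in overexpression mice, a difference of -0.86. It was -0.83 in males and ran from -1.07 to -0.62 when each library was left out. The ratio is given as a description without a test, because both genes were chosen with their directions known.

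**Figure D2:**
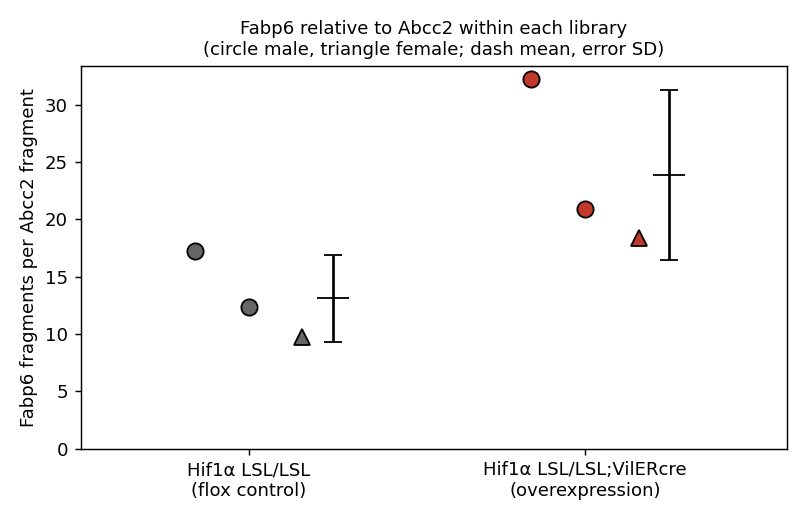
Fabp6 fragments per Abcc2 fragment in each library of flox controls (grey) and overexpression mice (red), with circles for males, triangles for females, and the mean with 1 SD (n = 3) beside them. Flox libraries lie between 9.76 and 17.2 and overexpression libraries between 18.4 and 32.3.

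Other genes of bile acid handling were also in the table. Of 42 genes of uptake, binding, export, sensing and synthesis, 7 were listed. The whole table lists 923 genes, where 19204 genes had been adjusted over. This list was drawn up with earlier results of these data known. The mean was higher in overexpression mice for Fabp6, Abcc3 and Abcc1 and lower for Abcc2, Abcc6, Abcg2 and Cyp3a11. Only Cyp3a11 passed edgeR, as 1 lower and 0 higher genes of 7, while 0.143% of the 697 tested genes passed as lower and 2.73% as higher. Cyp3a11 was itself the 1 gene of the 697 that passed as lower, so that share holds no other gene. At an unadjusted p under 0.05, 4 of the 7 passed edgeR (Abcc1, Abcc2, Abcc6 and Cyp3a11), against 79.9% of the 697. The median log2 fold change was -0.25 over the 7 and 0.34 over the 697. Genes were listed by p, so few log2 fold changes lie near 0 and a median turns on how many genes lie on each side. By mean, the 7 split as 3 higher and 4 lower, and the 923 as 495 higher and 428 lower. The uptake transporter Slc10a2, the exporter subunits Slc51a and Slc51b, the receptors Nr1h4, Nr1i2, Vdr and Gpbar1 and the ileal hormone Fgf15 were among the 35 genes that were not listed, and their levels were not analysed here.

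Abcc3 (MRP3), a basolateral exporter that moves conjugated bile acids and glucuronides toward the blood, had normalized counts of 1593, 1437 and 1134 in flox replicates 1, 2 and 3 and 1983, 1878.5 and 1513 in overexpression replicates 1, 2 and 3. The groups overlapped, as for Fabp6. Its log2 fold change was 0.37 (standard error 0.17, adjusted p = 1 from edgeR). Abcc1 (MRP1), an exporter of glutathione conjugates, averaged 297 ± 24.6 (SD, n = 3) in flox controls and 449 ± 85.5 (SD, n = 3) in overexpression mice with the groups apart, and edgeR gave a log2 fold change of 0.60 with a standard error of 0.19 (adjusted p = 1). Neither passed the test. Abcc6 (MRP6), also a basolateral exporter and known for a role in calcification, had the lower mean in overexpression mice, with 369 ± 34.3 (SD, n = 3) in flox controls and 243 ± 34.6 (SD, n = 3) in overexpression mice, the groups apart, and an edgeR log2 fold change of -0.61 with a standard error of 0.19 (adjusted p = 1).

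Abcg2 (BCRP), an apical exporter that pumps sulfated conjugates and xenobiotics into the lumen, averaged 5485 ± 136 (SD, n = 3) in flox controls and 4626 ± 276 (SD, n = 3) in overexpression mice. All its overexpression libraries lay below all flox libraries, at 0.843-fold in the mean, and the log2 fold change was -0.25 (standard error 0.12, adjusted p = 1 from edgeR).

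Cyp3a11, a cytochrome that hydroxylates bile acids and drugs, was the gene of the list that passed, with a log2 fold change of -1.71 with a standard error of 0.23 and an edgeR adjusted p of 0.0295. With each library left out in turn, the call remained in 1 of 6 fits, the one without overexpression replicate 2. The Abcc2 difference was 0.49 on the same scale, in the same direction. Of 49 genes of drug and organic anion metabolism, 8 were listed, 6 with a lower mean and 2 with a higher, and only Cyp3a11 passed edgeR. The 3 most abundant by normalized count were Ugt2b34, Cyp2c55 and Cyp3a25, with log2 fold changes of -0.29, -0.53 and -0.28 (adjusted p = 1 for each from edgeR). Ugt2b34 belongs to the enzymes that make glucuronides, which MRP2 exports. Of 34 genes of lipid handling, 2 were listed, the sterol exporter subunit Abcg8 at -0.25 and the desaturase Scd2 at 0.58, and neither passed. As background to both lists, the whole table holds 923 genes, where 19204 had been adjusted over. Of the 923, 428 had a lower mean and 495 a higher. Of the 697 tested, 1 passed edgeR as lower and 19 as higher.

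**Figure D3:**
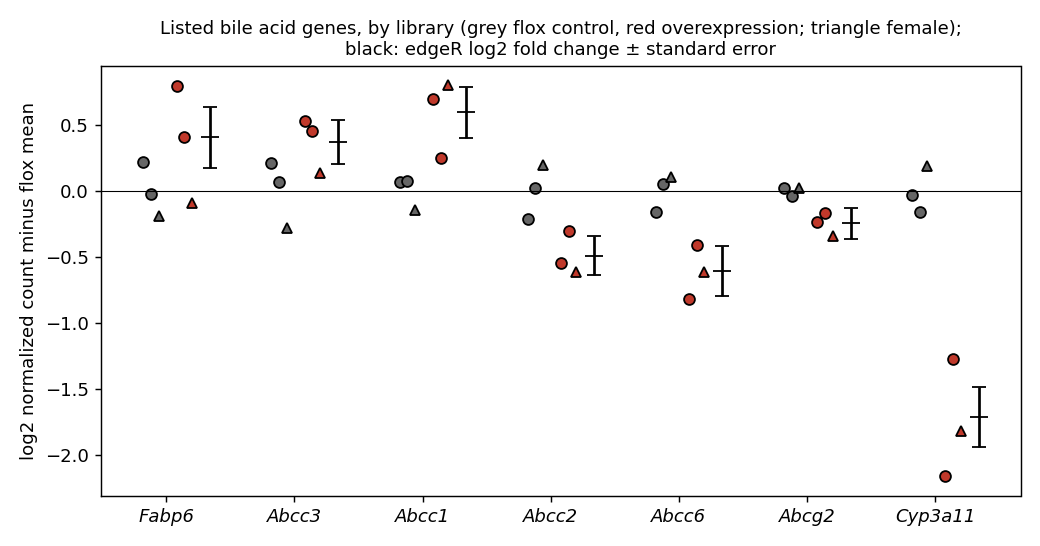
Log2 normalized count of the 7 listed bile acid genes in each library, minus the flox mean of the gene, for flox controls (grey) and overexpression mice (red), with triangles for females and, in black, the edgeR log2 fold change with its standard error. Fabp6, Abcc3 and Abcc1 lie above 0 in the mean and Abcc2, Abcc6, Abcg2 and Cyp3a11 below it, with Cyp3a11 farthest, at -1.71.

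By library, the genes most like the members were different ones. Over the 6 libraries and among 496 listed genes averaging 50 normalized counts or more, the highest Pearson correlations with Fabp6 were those of Sprr1a (r = 0.96), a cornified envelope protein, Cblc (r = 0.93), a ubiquitin ligase, and Abcc3 (r = 0.90). For Abcc2 they were those of Slc36a2 (r = 0.99), an amino acid transporter, Ocstamp (r = 0.98), a transmembrane protein known from osteoclasts, and H2-Ob (r = 0.98), a class II chaperone chain of B cells. Those 3 had low counts, with group means from 27.2 to 99.3. They are also the top of many, since 30 of the 496 genes exceeded r = 0.90 with Abcc2, against 3 with Fabp6. The correlation of Fabp6 with Abcc2 was -0.54. These values describe 6 libraries that share genotype groups and size factors, and each gene had been selected for differing between the groups. Sprr1a ran from 76.2 to 183 in flox controls and from 133 to 535 in overexpression mice, with the female the lowest library of each group as for Fabp6. H2-Ob ran from 74.9 to 130 in flox controls and from 42.0 to 72.4 in overexpression mice, with the female highest among flox controls and lowest among overexpression mice as for Abcc2.

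Markers of other cells were also in the table. In ileum RNA, fewer cells of a type and less RNA per cell cannot be told apart. Of 10 enterocyte markers 1 was listed, Anpep, a brush border peptidase that ranked 1 of 923 by normalized count and 5 of 923 by FPKM, at 0.850-fold (log2 fold change -0.24, adjusted p = 1 from edgeR). Of 7 ileal enterocyte markers 2 were listed, Fabp6 and Clec2h, and Clec2h had a log2 fold change of -0.40 (adjusted p = 1 from edgeR), against the direction of Fabp6. The B cell marker Ms4a1 ran from 23.7 to 97.9 normalized counts in flox controls and from 6.99 to 19.2 in overexpression mice. The stem cell marker Lgr5 (1 of 4) ran from 448 to 531 in flox controls and from 329 to 395 in overexpression mice. Acta1 (1 of 6 muscle markers) ran from 137 to 281 and from 587 to 950. No goblet (7), Paneth (6), enteroendocrine (5), T cell (5), endothelial and stromal (5) or duodenal and liver (4) marker was listed. The part of these markers in the Fabp6 and Abcc2 values was not tested.

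**Figure D4:**
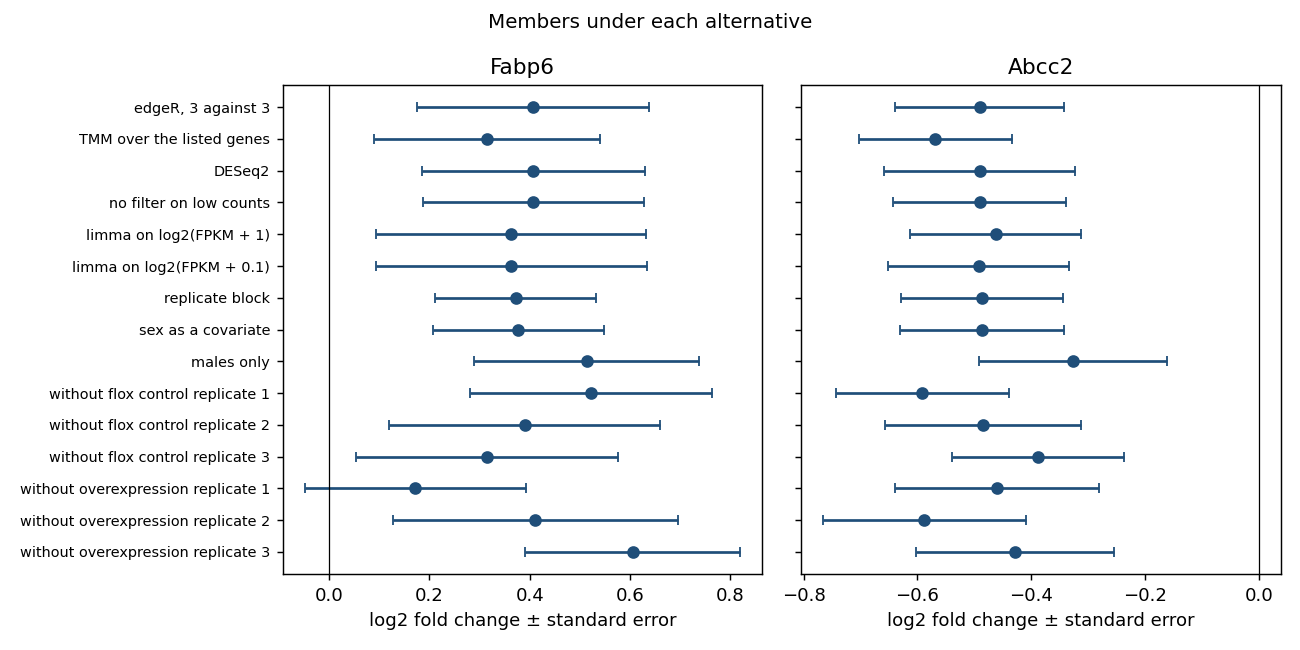
Log2 fold change of Fabp6 (left) and Abcc2 (right), overexpression against flox controls, with its standard error, from edgeR on all 6 libraries (top) and under each of 14 alternatives. Fabp6 stays above 0 (0.17 to 0.605) and Abcc2 below 0 (-0.59 to -0.33), and neither reached an adjusted p under 0.05 in any of them.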

How the data were processed

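Ileum RNA of 6 mice was analysed, 3 per group. Paired reads (150 bp) of polyadenylated RNA were aligned by the authors to GRCm38 in HISAT2 (version 2.0.5), and featureCounts gave the deposited counts, whole numbers for each gene. The normalized count is the signal the authors obtained by dividing counts by one size factor for each library. FPKM, also from the authors, further accounts for gene length. The table also holds the authors' log2 fold changes and p-values from DESeq2, which were not used as results. The p-values showed that all 923 listed genes had an unadjusted p under 0.05 and that 19204 genes had been adjusted over. Differences of genes so selected lean high. For the counting step, a strand setting was not given in the sources used here.

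Counts were tested with edgeR 4.0.16 (quasi-likelihood, R 4.3.3). The test took the 697 listed genes with at least 10 counts in at least 3 libraries, scaled by the deposited size factors (0.858 to 1.14), without covariates, with Benjamini-Hochberg adjustment over 19204 genes. Genes outside the 697 had no edgeR p, and the adjustment took them as ranking below the 697. Dispersions were estimated from the 697 genes alone, which had been listed by p in these same libraries. The steps were tested on simulated data. Library totals implied by the FPKM ran from 18918341 to 24905343, and the listed genes held 1170046 to 1451142 counts per library. Replicates are separate samples by their labels. Alternatives were TMM over the listed genes, DESeq2 (version 1.42.0), no filter, limma (version 3.58.1) on log2(FPKM + 1) and on log2(FPKM + 0.1), males only, sex as a covariate, a replicate block and omission of each library in turn. Named genes were both members, the listed genes of the bile acid list, the 3 of each other list with the highest mean, and for each member the 3 genes with the highest Pearson correlation on log2(normalized count + 1), leaving out predicted genes, pseudogenes and immunoglobulin segments. One marker of the lists is not reported here. Members and lists were chosen with earlier results of these data known. Promoters are RefSeq's on GRCm38.p6, and 4 of the 7 listed bile acid genes had one. Gene models and transcripts are GENCODE M21, on the same build.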

Additional observations from a re-analysis of the deposited data

How the results depend on the processing

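Fabp6 and Abcc2 kept their direction and stayed short of the threshold in all 14 alternatives each. The Fabp6 log2 fold change ran from 0.17 to 0.605 and the Abcc2 log2 fold change from -0.59 to -0.33, with the adjusted p of Abcc2 from 0.432 to 1. Unadjusted, p from the test of each alternative ran from 0.0208 to 0.459 for Fabp6 and from 0.00207 to 0.0926 for Abcc2. Both genes had been listed by p in these same libraries. The other listed bile acid genes and the 6 genes most like the members kept their direction as well. The difference of the log2 ratio of Abcc2 to Fabp6 was -0.83 in males, and from -1.07 to -0.62 with each library left out. It was -0.86 with FPKM and with log2(count + 1). FPKM divides both genes by the same library total and by fixed lengths, so it could not change this difference. Adding 1 to counts this large could hardly do so.

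Over the listed genes edgeR called 19 higher and 1 lower. DESeq2 called 59 higher and 13 lower, limma on either FPKM scale 11 higher and 0 lower, and males only gave 1 higher and 0 lower. With sex as a covariate 16 were higher and 0 lower. Leaving out 1 library gave 3 to 12 higher and 0 to 1 lower. The 1 bile acid gene called, Cyp3a11, was called in 0 of the fits with either limma scale, sex as a covariate or males only, and in 0 to 1 with each library left out. The males-only fit and those with 1 library left out used fewer libraries. Why the calls differed between fits was not tested.

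Same-numbered libraries of both groups did not deviate together (correlations of 0.0435, 0.00618 and 0.123 over 697 genes for replicates 1, 2 and 3), so they were not treated as pairs. Fabp6 itself fell from replicate 1 to 3 in both groups, and replicate 3 was the female of each. With a replicate block edgeR called 22 higher and 4 lower genes. The Fabp6 log2 fold change was then 0.37 (standard error 0.16, unadjusted p = 0.0435 from edgeR). Without a block it was 0.41 (standard error 0.23, unadjusted p = 0.110 from edgeR). That of Abcc2 was -0.49 with the block, and both genes stayed short of the threshold after adjustment. With 3 mice per group, no permutation p below 0.1 can be had, and counting error was far below the spread between mice.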
